A study of Mus musculus with 14 samples.

Results

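The genes that encode the subunits of the glutamate and GABA receptors were followed across upper and deep cortical layers of the mouse. Members were the rows of the deposited gene table whose symbols name AMPA receptor subunits (Gria1 to Gria4), NMDA receptor subunits (the Grin genes), kainate receptor subunits (the Grik genes), delta receptors (the Grid genes), metabotropic glutamate receptors (the Grm genes), GABA-A and GABA-rho subunits (the Gabr genes) and GABA-B subunits (Gabbr1 and Gabbr2). This gave 47 of 32830 genes: 4 Gria, 7 Grin, 5 Grik, 2 Grid, 8 Grm, 19 Gabr and 2 Gabbr genes. All mice were of the SW strain, carried Aldh1l1-GFP, a transgene in which an astrocyte gene's regulatory sequence drives green fluorescent protein, and were sampled on postnatal day 14. The 6 groups were upper and deep layer astrocytes (GFP-positive sorted cells, 3 libraries each), upper and deep layer non-astrocytes (GFP-negative sorted cells, 2 libraries each) and upper and deep layer bulk tissue (cortex that was not dissociated, 2 libraries each). Layers were microdissected, and tissue for sorting was then dissociated with papain. Nothing in the labels ties the libraries of a group to different animals. The p-values therefore rest on the scatter among libraries alone, part or all of which may be technical.

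Glutamate excites and GABA inhibits most cortical neurons. AMPA, NMDA and kainate receptors are glutamate-gated ion channels built from 4 subunits, while the metabotropic glutamate receptors and the GABA-B receptor signal through G proteins. GABA-A receptors are chloride channels in which alpha, beta and gamma or delta subunits combine. Astrocytes also carry transmitter receptors and take up both transmitters, and the subunits a cell makes set the calcium permeability, kinetics and pharmacology of its receptors.

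The libraries held 18226457 to 30316765 reads in genes, and replicates of a group correlated at r = 0.956 or more on the log2 scale across genes. Levels are normalised read counts, the authors' reads per gene with each library scaled by its own size factor. Differences are log2 differences of the normalised read count + 1 from limma, which understate the change of genes with low values, and a gene was called at a Benjamini-Hochberg adjusted p below 0.05 over the 22575 genes that passed a filter on low values. All 10 astrocyte markers were called higher in astrocytes than in bulk tissue. Their summed level was 1023520 to 1510440 in astrocyte libraries, 26976 to 34717 in non-astrocyte libraries and 203484 to 243118 in bulk tissue libraries. All 10 neuron markers were called lower in astrocytes and in non-astrocytes than in bulk tissue. Their summed level was 8229 to 12848 in astrocytes and 9080 to 16326 in non-astrocytes, against 260544 to 374502 in bulk tissue. Most of the astrocyte sum was Map2, at a mean of 8733 against 3319 in non-astrocytes. Map2 stood at 28.1% of its bulk tissue level in astrocytes, and no other neuron marker stood above 0.635%. The median neuron marker stood at 0.241% of its bulk tissue level in astrocytes and at 3.30% in non-astrocytes. None of the 10 was at 0 in any astrocyte library. All 8 interneuron markers were called lower in astrocytes than in bulk tissue, but most were still found there. Slc32a1 was at 0 in all 6 astrocyte libraries, Vip in 3 and Pvalb in 2, while Gad1, Gad2, Lhx6, Dlx1 and Sst were at 0 in none. Gad2 and Lhx6 stood at 7.44% and 26.8% of their bulk tissue level in astrocytes. The non-astrocyte libraries were rich in other cells. Summed markers of oligodendrocyte precursors (27351 to 60868, against 3755 to 6250 in bulk tissue), microglia (134808 to 197681, against 6570 to 7794) and mural cells (217594 to 293660, against 8295 to 10665) were all higher there. Fewer cells of a type and less RNA per cell cannot be told apart in any of these fractions, and the part that leftover RNA of other cells plays in a low level was not tested.

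The 250 bases upstream of the start site are shown for the 3 members with the largest rises in astrocytes over bulk tissue, 5′ to 3′ on the gene's strand, from RefSeq (GRCm38.p6), with the dinucleotide CG in capitals. Of the 47 members, 32 had an entry in that table.
Gabrg1: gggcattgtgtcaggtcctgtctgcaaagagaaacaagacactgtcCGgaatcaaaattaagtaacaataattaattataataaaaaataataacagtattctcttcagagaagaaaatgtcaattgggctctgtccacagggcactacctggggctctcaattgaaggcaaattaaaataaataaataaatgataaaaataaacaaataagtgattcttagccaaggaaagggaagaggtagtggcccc
Grin2c: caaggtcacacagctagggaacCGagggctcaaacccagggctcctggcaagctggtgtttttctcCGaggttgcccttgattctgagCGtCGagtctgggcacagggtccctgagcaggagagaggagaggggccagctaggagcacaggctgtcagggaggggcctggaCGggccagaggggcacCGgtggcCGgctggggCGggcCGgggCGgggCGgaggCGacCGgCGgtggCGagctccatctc
Grm3: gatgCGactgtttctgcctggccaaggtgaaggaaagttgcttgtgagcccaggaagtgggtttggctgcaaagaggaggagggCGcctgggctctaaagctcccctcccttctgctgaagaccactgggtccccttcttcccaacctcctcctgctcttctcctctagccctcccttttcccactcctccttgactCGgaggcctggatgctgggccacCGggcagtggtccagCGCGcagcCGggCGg
The Gabrg1 window (chr5:70842618-70842867, minus strand) held 1 CG, and 18.8% of the 32851 windows in the table held as few. The Grin2c window (chr11:115267244-115267493, minus strand) held 15 and the Grm3 window (chr5:9725353-9725602, minus strand) held 8, against a median of 6 over all windows. At least 1 CG, which reads the same on both strands, stood in 92.1% of the windows. The 3 windows thus lay on both sides of that median.

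Of the 47 members, 44 passed the filter, and Gabra6, Gabrp and Gabrr3 were too low to test, with no library above 8.45. Against non-astrocytes, 15 of the 44 were called higher in astrocytes and 20 lower, where 29.6% of all tested genes were called higher and 36.8% lower. Against bulk tissue, 9 were called higher in astrocytes and 28 lower, where 28.8% and 36.1% of all genes were. In non-astrocytes, 1 member was called higher than in bulk tissue and 38 lower, where 30.5% of all genes were called higher and 31.1% lower. The median member differed by -2.92 between astrocytes and bulk tissue and by -2.77 between non-astrocytes and bulk tissue, beside medians of -0.10 and -0.04 over all genes. By these calls, 9 members were higher in astrocytes than in both other fractions, 1 was higher in non-astrocytes than in both, 27 were higher in bulk tissue than in both, and 7 fell in none of these classes. Gabrr2 among the 9, and Gabrr1 as the 1 in non-astrocytes, passed the filter only through the fraction where they are high.

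**Figure D1:**
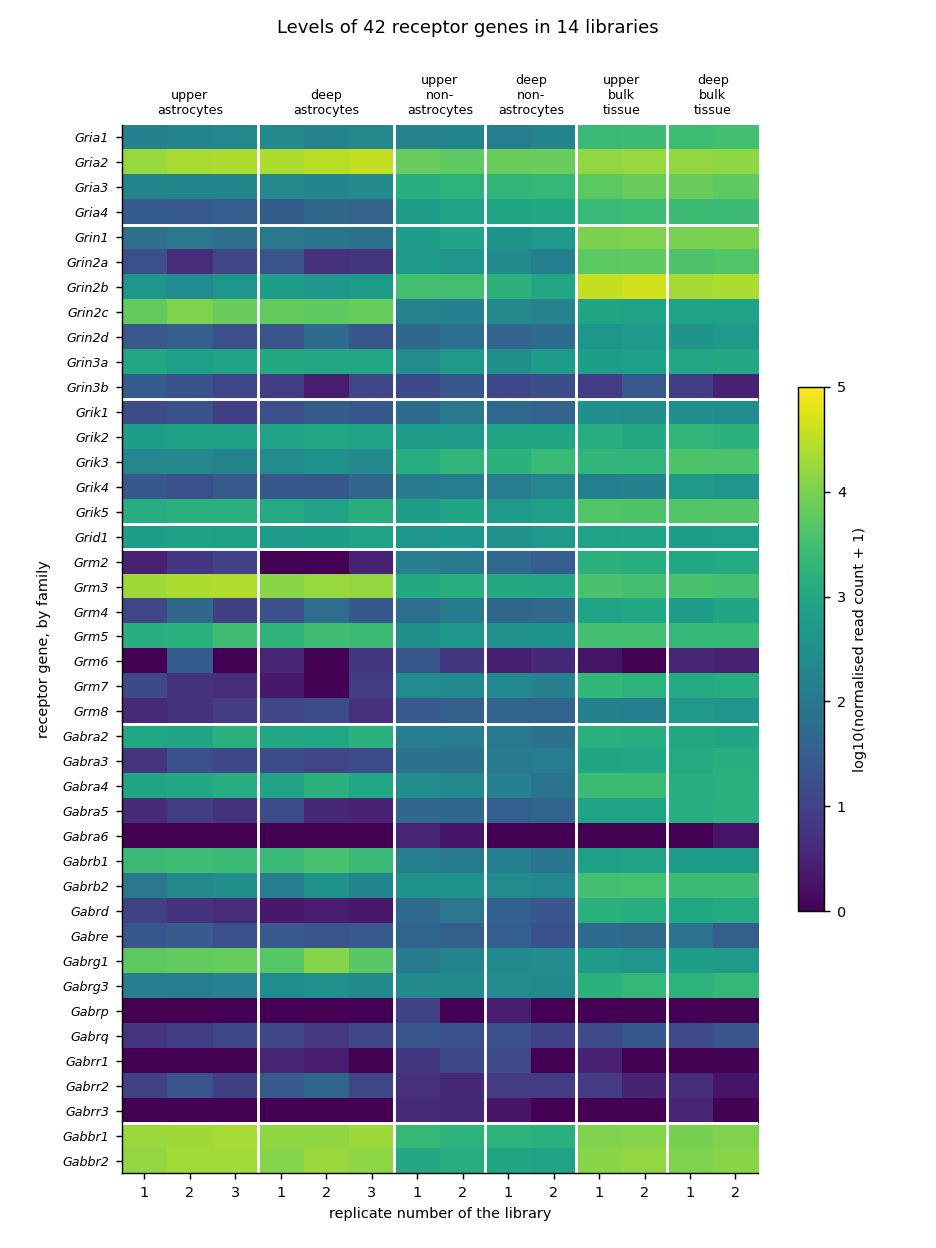
Levels of 42 receptor genes (rows, by family) in the 14 libraries (columns, by group and replicate number), coloured by log10 of the normalised read count + 1. Grm3, Grin2c, Gabrg1 and Gabrb1 are brightest in the 6 astrocyte libraries, while Grin1, Grin2a and Grin2b are brightest in the 4 bulk tissue libraries.

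Of the 9 members called higher in astrocytes, 8 are described. Grm3, a group II metabotropic glutamate receptor, had 19297, 24284 and 25286 normalised read counts in upper layer astrocytes and 13034, 16983 and 15711 in deep layer astrocytes. It had 1065, 1351, 1089 and 1060 in non-astrocytes and 3628, 3283, 3600 and 3257 in bulk tissue. Every astrocyte library thus lay above every other library. The log2 difference was 4.03 ± 0.12 (SE) from non-astrocytes (adjusted p = 5.6e-13) and 2.43 ± 0.12 from bulk tissue (adjusted p = 1.2e-10). Per kilobase of exon, Grm3 had the highest level of the 47 in astrocytes, at a mean of 6264, against 374 in non-astrocytes and 1129 in bulk tissue.

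Grin2c encodes a GluN2 subunit of the NMDA receptor that gives a weaker magnesium block than GluN2A or GluN2B. Its levels were 6338, 10634 and 7120 in upper layer astrocytes and 6184, 5749 and 6865 in deep layer astrocytes. Non-astrocytes had 169, 150, 220 and 168, and bulk tissue had 883, 791, 785 and 792. The astrocyte libraries did not overlap with either other fraction, and the difference of 5.31 ± 0.14 from non-astrocytes (adjusted p = 2.5e-13) was the largest rise of any member in that comparison. From bulk tissue it differed by 3.11 ± 0.14 (adjusted p = 4.6e-11).

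Gabrg1 encodes a gamma subunit of the GABA-A receptor that is rarer in cortical neurons than gamma2. It had 5478, 6245 and 6449 in upper layer astrocytes and 4876, 12560 and 5295 in deep layer astrocytes. Non-astrocytes had 121, 182, 238 and 253, against 562, 403, 621 and 552 in bulk tissue. All astrocyte libraries were higher than all others, with a difference of 5.07 ± 0.22 from non-astrocytes (adjusted p = 3.1e-11) and of 3.61 ± 0.22 from bulk tissue (adjusted p = 1.5e-09), the largest rise of any member over bulk tissue. Gabrb1, a beta subunit that helps to form the GABA binding site, ran from 2382 to 3445 in astrocytes (median 2599) and was 148, 109, 159 and 92.8 in non-astrocytes and 732, 751, 557 and 577 in bulk tissue. The difference was 4.43 ± 0.16 from non-astrocytes (adjusted p = 3.2e-12) and 2.06 ± 0.16 from bulk tissue (adjusted p = 2.0e-08), again with no overlap.

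Gria2 encodes the AMPA receptor subunit that makes the channel nearly impermeable to calcium once its transcript is edited. Astrocytes had 17306 to 34543 (median 24214). Non-astrocytes had 6989, 5868, 7410 and 7182, and bulk tissue had 15402, 16602, 15418 and 13909. The astrocyte libraries again lay above all others, by 1.86 ± 0.13 from non-astrocytes (adjusted p = 5.4e-09) but by only 0.70 ± 0.13 from bulk tissue (adjusted p = 0.00024).

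Both subunits of the GABA-B receptor, of which Gabbr1 binds GABA and Gabbr2 couples to the G protein, were abundant in astrocytes. Gabbr1 ran from 14493 to 22442 in astrocytes (median 17940), against 2286, 1685, 1766 and 1470 in non-astrocytes and 11006, 11903, 9581 and 10850 in bulk tissue. The astrocyte libraries lay above all others, by 3.31 ± 0.13 from non-astrocytes (adjusted p = 7.4e-12) and by 0.71 ± 0.13 from bulk tissue (adjusted p = 0.00020). Gabbr2 ran from 12154 to 19913 in astrocytes (median 16574), against 1046, 1282, 851 and 794 in non-astrocytes and 12853, 15137, 10893 and 12766 in bulk tissue. Its difference from non-astrocytes was 4.06 ± 0.14 (adjusted p = 1.4e-12). The difference from bulk tissue was 0.35 ± 0.14 (adjusted p = 0.036), the groups overlapped, and the call was lost when deep layer astrocyte replicate 2 (adjusted p = 0.060), upper layer astrocyte replicate 2 (0.078) or 3 (0.073), or bulk tissue replicate 1 of the deep (0.14) or upper layers (0.14) was left out. The rho subunit gene Gabrr2, was low everywhere. It had 8.59, 19.6, 7.71, 24.8, 41.1 and 10.6 in the astrocyte libraries, upper layers first, against 3.84, 2.69, 6.47 and 6.37 in non-astrocytes and 6.45, 2.00, 3.52 and 0.924 in bulk tissue. It was called 1.58 ± 0.48 higher than in non-astrocytes (adjusted p = 0.0086) and 2.16 ± 0.48 higher than in bulk tissue (adjusted p = 0.00094).

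**Figure D2:**
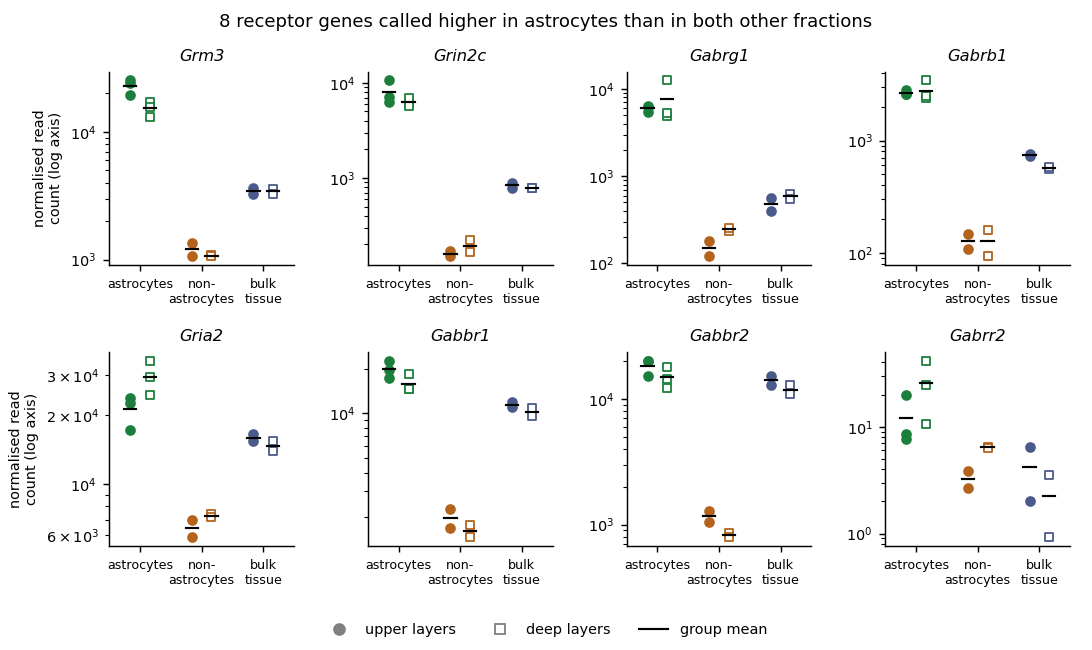
Normalised read counts (log axis, scaled for each gene) of 8 members called higher in astrocytes than in both other fractions. Each symbol is 1 library (filled circles for upper layers, open squares for deep layers) and each bar a group mean. The astrocyte libraries lie above all others for each gene except Gabbr2, which overlaps with bulk tissue. Gabrr2 passed the filter only through its astrocyte libraries.

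The single member called higher in non-astrocytes than in both other fractions, the rho subunit gene Gabrr1, rested on very few reads. Non-astrocytes had 5.37, 11.7, 12.9 and 0, astrocytes had 0, 0, 0, 2.36, 1.42 and 0, and bulk tissue had 1.84, 0, 0 and 0. The fractions overlapped, no fold is given, and the call was lost in both comparisons when deep layer non-astrocyte replicate 1 or upper layer non-astrocyte replicate 2 was left out, and against bulk tissue also without upper layer bulk tissue replicate 2.

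Among the AMPA receptor subunits, the 3 others were called lower in astrocytes than in bulk tissue, where 36.1% of all genes were. Gria3, which forms channels mostly together with Gria2, was the most abundant of the 3 in bulk tissue. It ran from 183 to 223 in astrocytes (median 195), against 1399, 1738, 1873 and 2092 in non-astrocytes and 5619, 6933, 6943 and 5676 in bulk tissue, with no overlap between any pair of fractions. The difference from bulk tissue was -4.95 ± 0.12 (adjusted p = 5.0e-14). Gria4 averaged 32.7 ± 7.49 in astrocytes (SD, n = 6), 835 ± 162 in non-astrocytes and 2642 ± 203 in bulk tissue (SD, n = 4 each). Gria1 averaged 195 ± 29.1 in astrocytes and 167 ± 24.6 in non-astrocytes, which overlapped (adjusted p = 0.19), and 2767 ± 233 in bulk tissue. In non-astrocytes, Gria3 and Gria4 thus kept 28.2% and 31.6% of their bulk tissue level, and Gria1 6.02%. The summed neuron markers of the same libraries kept 4.27%.

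Within a library, Gria2 took 96.5% ± 0.557 of the summed AMPA subunit level per kilobase in astrocytes, 56.6% ± 4.34 in non-astrocytes and 39.4% ± 2.13 in bulk tissue (SD). The 3 fractions did not overlap. A 2-sided exact permutation test over libraries gave p = 0.0095 for astrocytes against each other fraction, the smallest that 6 against 4 libraries allow, and p = 0.029 for non-astrocytes against bulk tissue, the smallest that 4 against 4 allow (0.014 and 0.031 after adjustment over 12 tests of 4 shares). A share within a library does not depend on the scaling between libraries. The share tests here and below took upper and deep libraries as independent. They left out the pairs of same-numbered libraries that are assumed for the layers, so their p-values may be too small. The total AMPA subunit level was 1689 ± 386 per kilobase in astrocytes, 781 ± 78.6 in non-astrocytes and 2501 ± 152 in bulk tissue.

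The NMDA receptor needs the GluN1 subunit, which Grin1 encodes. Grin1 averaged 83.1 ± 13.4 in astrocytes, 581 ± 188 in non-astrocytes and 10221 ± 425 in bulk tissue, and differed by -6.94 ± 0.14 between astrocytes and bulk tissue (adjusted p = 2.2e-14). Its exons overlap those of an antisense gene over 13.5% of their length, and the counting strand is not known. Grin2b, the GluN2 subunit that prevails early in life, had the highest bulk tissue level of the family. It was 452, 262 and 435 in upper layer astrocytes and 612, 401 and 521 in deep layer astrocytes, against 3241 and 3127 in upper layer non-astrocytes and 1652 and 974.8 in deep layer non-astrocytes. In bulk tissue it was 34324 and 42916 in upper layers and 20920 and 24604 in deep layers. None of the fractions overlapped, and astrocytes differed from bulk tissue by -6.09 ± 0.19 (adjusted p = 4.7e-13).

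Grin2a, the GluN2 subunit that rises as the cortex matures, averaged 9.48 ± 6.41 in astrocytes, 325 ± 157 in non-astrocytes and 4939 ± 802 in bulk tissue, and the difference of -9.10 ± 0.39 between astrocytes and bulk tissue (adjusted p = 2.7e-11) was the largest fall of any member. Grin2d was lower in astrocytes (28.3 ± 14.6) and in non-astrocytes (52.5 ± 10.6) than in bulk tissue (452 ± 54.5). Grin3a, a GluN3 subunit that lowers calcium entry, averaged 899 ± 155 in astrocytes and was called higher there than in non-astrocytes (409 ± 136, difference 1.18 ± 0.18, adjusted p = 3.9e-05) and did not pass the test against bulk tissue (819 ± 215, difference 0.15 ± 0.18, 95% interval -0.24 to 0.55). Grin3b, whose exons overlap Tmem259 over 32.1% of their length, had at most 28.6 in any library and passed no test.

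Grin2c took 92.5% of the summed NMDA subunit level per kilobase in astrocytes, 15.1% in non-astrocytes and 5.74% in bulk tissue. Grin1 took 0.57% in astrocytes, 23.9% in non-astrocytes and 37.4% in bulk tissue. In astrocytes the Grin1 level was 8.56 per kilobase, against 1419 for Grin2c. These values divide by merged exon length. It is 9700 bases for Grin1, whose longest transcript has 4276, and 5037 for Grin2c, whose longest has 4895. Shares between subunits, here and for the other receptors, depend on this choice of length. Of Grin2a and Grin2b together, Grin2b made up 97.3% ± 1.38 in astrocytes, 83.2% ± 0.815 in non-astrocytes and 81.2% ± 2.46 in bulk tissue (2-sided exact permutation test, p = 0.0095 for astrocytes against each, 0.23 for non-astrocytes against bulk tissue, and 0.014 and 0.23 after adjustment). The first of these shares rests on low levels, since Grin2a and Grin2b stood at 0.192% and 1.46% of their bulk tissue level in astrocytes.

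All 5 kainate receptor subunits were called lower in astrocytes and in non-astrocytes than in bulk tissue, where 36.1% and 31.1% of all genes were. Grik5, a high-affinity subunit that needs a partner from Grik1 to Grik3 to form a channel, was highest in bulk tissue. It ran from 746 to 1571 in astrocytes (median 1334), against 611, 878, 479 and 681 in non-astrocytes and 4297, 4125, 4469 and 4615 in bulk tissue. It differed by -1.81 ± 0.18 between astrocytes and bulk tissue (adjusted p = 2.6e-07) and by 0.94 ± 0.18 from non-astrocytes (adjusted p = 0.00023), though the ranges of the sorted fractions overlapped. Grik2 averaged 768 ± 128 in astrocytes and 697 ± 211 in non-astrocytes, which did not differ by the test (adjusted p = 0.21), and 1474 ± 332 in bulk tissue.

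Grik3 averaged 239 ± 66.5 in astrocytes, 1799 ± 464 in non-astrocytes and 2995 ± 1220 in bulk tissue, and Grik4 averaged 25.2 ± 9.52, 142 ± 44.8 and 309 ± 186 in the same 3 fractions. They kept 60.1% and 45.9% of their bulk tissue level in non-astrocytes, and 7.97% and 8.14% in astrocytes. Oligodendrocyte precursor markers summed to 861% of their bulk tissue level in the same non-astrocyte libraries and to 10.6% in astrocytes. Gpr17 and Enpp6 weighed most in the non-astrocyte sum, and Pdgfra alone stood at 492% there. The part of such cells in the Grik3, Gria3 and Gria4 levels was not tested. The Gabre, Grik3 and Grik4 calls between non-astrocytes and bulk tissue were lost when libraries were scaled to their totals. Grik1 averaged 17.6 ± 7.33 in astrocytes, 60.0 ± 26.1 in non-astrocytes and 302 ± 28.2 in bulk tissue.

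Grid1, a delta receptor that binds cerebellins, had its highest fraction mean in bulk tissue, where it overlapped with astrocytes. It ran from 578 to 757 in astrocytes (median 666), against 417, 460, 330 and 477 in non-astrocytes and 749, 847, 639 and 670 in bulk tissue. It was 0.68 ± 0.13 higher in astrocytes than in non-astrocytes (adjusted p = 0.00035), and did not pass the test against bulk tissue (-0.11 ± 0.13, 95% interval -0.40 to 0.17), where scaling by library totals turned the sign (0.07).

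Among the metabotropic glutamate receptors, Grm5 couples to calcium release and is known in astrocytes mainly of young animals. It had 1457, 1595 and 2900 in upper layer astrocytes and 1789, 2938 and 2706 in deep layer astrocytes, against 328, 445, 341 and 362 in non-astrocytes and 3204, 3219, 2161 and 2261 in bulk tissue. Astrocytes lay above non-astrocytes without overlap (2.54 ± 0.19, adjusted p = 1.1e-08) and overlapped with bulk tissue (-0.32 ± 0.19, adjusted p = 0.16). With the replicate number as a block, or without upper layer astrocyte replicate 3, Grm5 was called lower in astrocytes than in bulk tissue (-0.51, adjusted p = 0.0086, and -0.47, adjusted p = 0.016). The same block also added Gabra2 to the calls against bulk tissue and Gabrq to those against non-astrocytes.

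Grm2, Grm4, Grm7 and Grm8, which inhibit transmitter release at many synapses, were all called lower in both sorted fractions than in bulk tissue. Grm2 averaged 3.05 ± 3.46 in astrocytes, 79.7 ± 47.6 in non-astrocytes and 1298 ± 270 in bulk tissue. Grm7 averaged 4.78 ± 4.54, 223 ± 49.5 and 1552 ± 436 in the same order. Grm6, known from retinal bipolar cells, had at most 27.2 in any library and passed no test between fractions, except against non-astrocytes when upper layer astrocyte replicate 2 was left out.

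Grm3 took 99.99% ± 0.0084 of the group II level (Grm2 and Grm3) per kilobase in astrocytes, 95.9% ± 2.41 in non-astrocytes and 81.0% ± 3.16 in bulk tissue (2-sided exact permutation test, p = 0.0095 for astrocytes against each, 0.029 for non-astrocytes against bulk tissue, and 0.014 and 0.031 after adjustment). Of all 8 metabotropic receptors it made up 96.1% in astrocytes, 76.1% in non-astrocytes and 52.3% in bulk tissue.

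The GABA-A genes held both members called higher and members called lower in astrocytes. Of the 16 Gabr genes tested, 3 were called higher in astrocytes than in bulk tissue (Gabrb1, Gabrg1 and Gabrr2) and 11 lower. Of all genes, 28.8% were called higher and 36.1% lower there. In non-astrocytes, 13 were called lower than in bulk tissue, where 31.1% of all genes were. Gabrd, the delta subunit of receptors outside synapses, averaged 3.32 ± 2.91 in astrocytes, 51.4 ± 32.9 in non-astrocytes and 1273 ± 254 in bulk tissue. It stood at 0.26% of its bulk tissue level in astrocytes, beside 0.241% for the median neuron marker.

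The alpha subunits found in astrocytes were Gabra2 and Gabra4. Gabra2 averaged 1141 ± 327 in astrocytes, 114 ± 28.6 in non-astrocytes and 1212 ± 291 in bulk tissue. Astrocytes overlapped with bulk tissue (-0.10 ± 0.19, 95% interval -0.50 to 0.30) and lay 3.31 ± 0.19 above non-astrocytes (adjusted p = 5.0e-10). Gabra4 averaged 1114 ± 293 in astrocytes, 187 ± 87.2 in non-astrocytes and 2049 ± 748 in bulk tissue, and was called higher than in non-astrocytes (2.67 ± 0.21) and lower than in bulk tissue (-0.84 ± 0.21, adjusted p = 0.0022, with overlap). Per kilobase, Gabra4 and Gabra2 made up 53.9% and 43.9% of the alpha level in astrocytes, 17.1% and 8.67% in non-astrocytes and 15.9% and 7.6% in bulk tissue.

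Among the beta subunits, Gabrb1 made up 71.3% of the level per kilobase in astrocytes, 4.02% in non-astrocytes and 2.02% in bulk tissue. Gabrb2 (219 ± 103 in astrocytes and 299 ± 72.0 in non-astrocytes, against 3041 ± 470 in bulk tissue) and Gabrg3 (214 ± 82.4 and 242 ± 17.4, against 1916 ± 279) were called lower in both sorted fractions than in bulk tissue, and did not pass the test between the sorted fractions. Both were called lower in astrocytes than in non-astrocytes with library total scaling and without deep layer astrocyte replicate 2, and Gabrb2 also without upper layer astrocyte replicate 3. Gabrg1 took 97.8% ± 0.886 of the gamma level per kilobase in astrocytes, 33.8% ± 9.13 in non-astrocytes and 13.2% ± 2.38 in bulk tissue (2-sided exact permutation test, p = 0.0095 for astrocytes against each, 0.029 for non-astrocytes against bulk tissue, and 0.014 and 0.031 after adjustment). Gabre, Gabrq and the untested Gabra6, Gabrp and Gabrr3 had no library above 79.9. Gabre was called lower in both sorted fractions than in bulk tissue, but the call in non-astrocytes was lost without deep or upper layer non-astrocyte replicate 2, deep layer bulk tissue replicate 1 or either upper layer bulk tissue library. Gabrq was called lower in astrocytes than in bulk tissue, and that call was lost with library total scaling and without upper layer astrocyte replicate 1, deep layer bulk tissue replicate 2 or upper layer bulk tissue replicate 2.

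**Figure D3:**
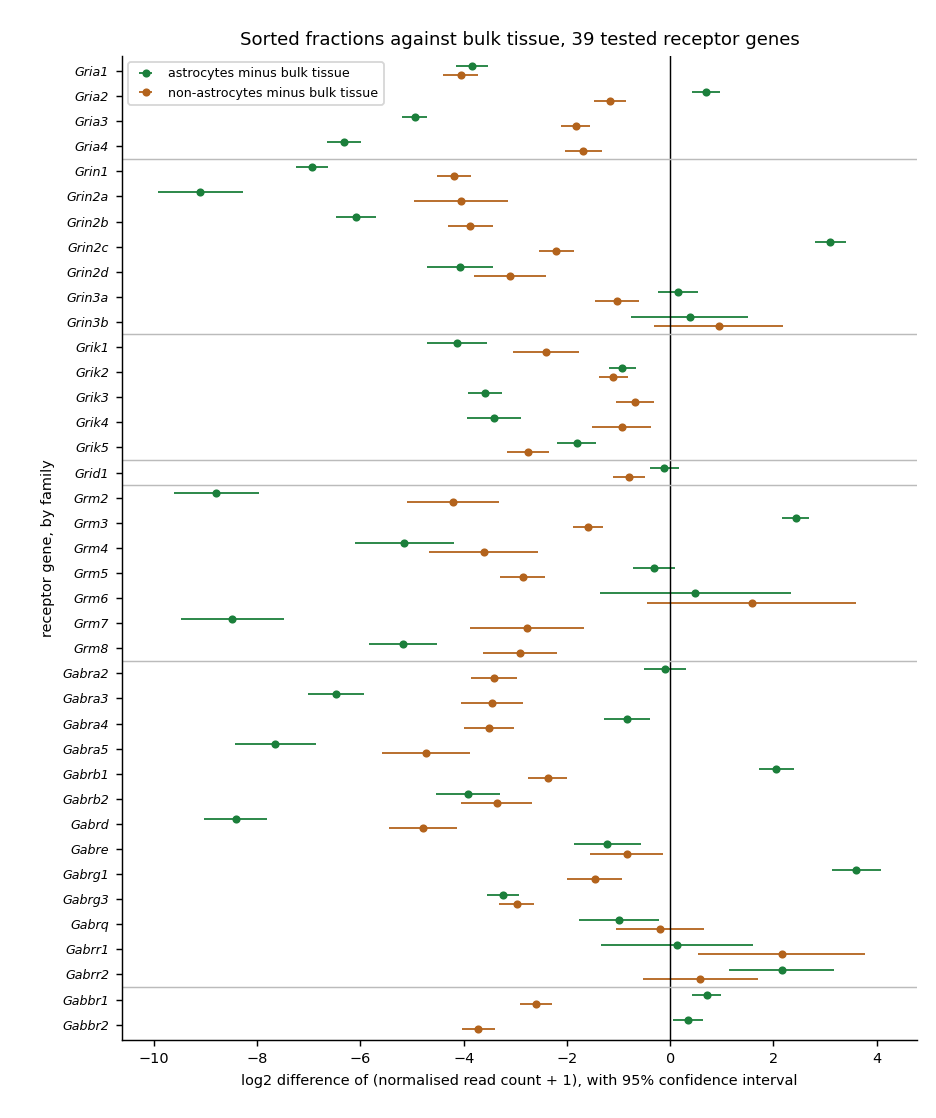
Log2 differences from bulk tissue of 39 tested members, for astrocytes (green) and non-astrocytes (brown), with 95% confidence intervals, by family. Most members lie left of 0 in both fractions, down to -9.10 for Grin2a in astrocytes, and the green points right of 0 run up to 3.61 for Gabrg1.

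**Figure D4:**
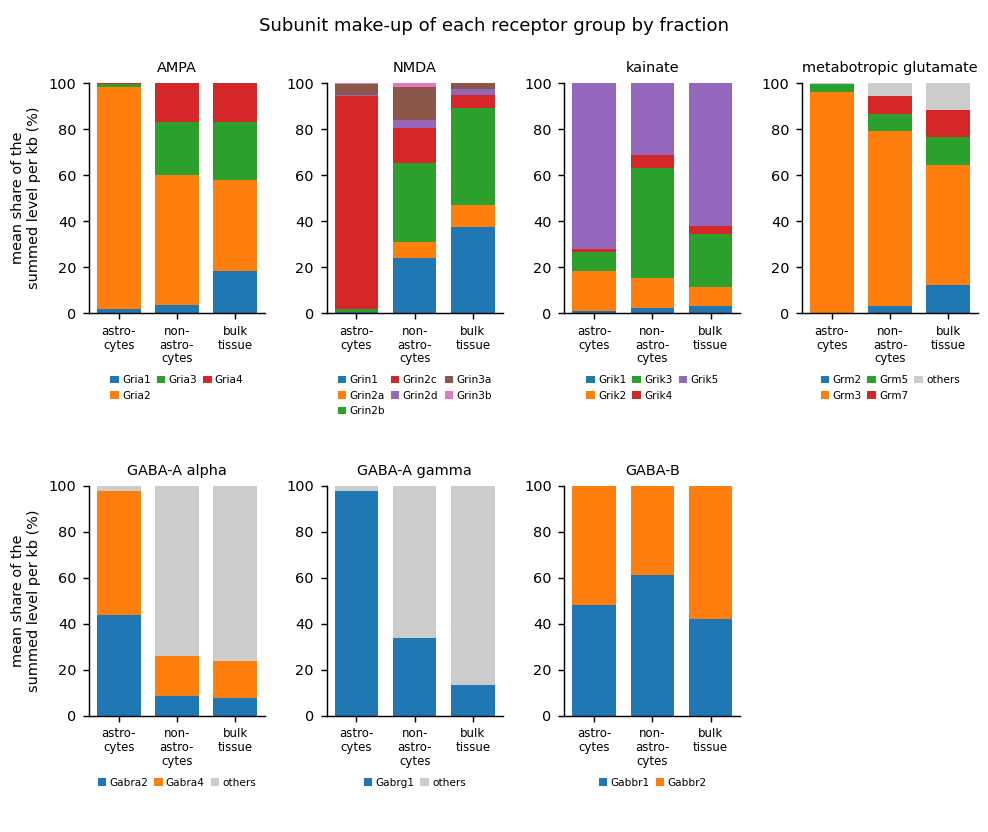
Mean share of each subunit (%) in the summed level per kilobase of its receptor group, for astrocytes, non-astrocytes and bulk tissue, with some members drawn together in grey. In astrocytes, 1 subunit takes over 90% in the AMPA (Gria2), NMDA (Grin2c), metabotropic (Grm3) and gamma (Gabrg1) groups, while bulk tissue is more mixed.

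Most GABA-A genes lie in clusters (GRCm38, GENCODE M21). The chromosome 5 cluster spans 1398 kb and holds Gabrg1 (chr5:70751047-70842617, minus strand), Gabra2 (chr5:70957597-71095849, minus), Gabra4 (chr5:71569749-71658308, minus) and Gabrb1 (chr5:71658113-72149037, plus). All 4 were called higher in astrocytes when set against non-astrocytes, by 5.07, 3.31, 2.67 and 4.43 in that order. They were the GABA-A genes other than Gabrr2 with such a call, which 29.6% of all tested genes had. Against bulk tissue the same 4 differed by 3.61, -0.10, -0.84 and 2.06. Gabra4 and Gabrb1 face away from each other and share 196 bases at their 5′ ends, of which 46 are exonic in both, so reads there cannot be assigned without strand. None of the genes given here from the other 3 clusters was called higher in astrocytes. On chromosome 11, Gabrb2 differed between astrocytes and bulk tissue by -3.92. On chromosome 7, Gabra5 and Gabrg3 differed by -7.65 and -3.23, and on chromosome X, Gabra3, Gabre and Gabrq differed by -6.47, -1.22 and -0.99.

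Receptor partners were counted in a list of 49 genes (auxiliary subunits, scaffolds, delta receptor ligands and glycine receptor subunits). Of these, 4 were called higher in astrocytes than in bulk tissue and 37 lower, with a median of -2.63, where 28.8% of all genes were called higher and 36.1% lower. In non-astrocytes 6 were higher than in bulk tissue and 42 lower (median -2.83), where 30.5% and 31.1% of all genes were. Against non-astrocytes, 14 were higher in astrocytes and 23 lower (median -0.44), where 29.6% and 36.8% of all genes were, so the share called higher was close to that over all genes. The largest falls against bulk tissue were those of Cacng3, an auxiliary subunit of AMPA receptors (7.69 ± 4 in astrocytes, 135 ± 89.1 in non-astrocytes, 4583 ± 2349 in bulk tissue; -9.04 ± 0.30), Neto1, one of kainate receptors (-9.03 ± 0.71), and Cbln2, a delta receptor ligand (-8.27 ± 0.46). The largest rise against bulk tissue was that of Kctd12b, a relative of the GABA-B receptor's auxiliary subunits (2.48 ± 0.23). It had 717 ± 351 in astrocytes, 941 ± 303 in non-astrocytes and 119 ± 12.4 in bulk tissue. Homer3, which binds group I metabotropic receptors, came next (1.72 ± 0.22), with 89.9 ± 18.2, 139 ± 21.2 and 26.8 ± 6.3 in the same order. Homer3 was called lower in astrocytes than in non-astrocytes (-0.63 ± 0.22, adjusted p = 0.019), and Kctd12b did not pass that test (adjusted p = 0.10). Then came Shisa9, an AMPA receptor auxiliary subunit (1.09 ± 0.18). It had 2754 ± 545 in astrocytes, 446 ± 142 in non-astrocytes and 1278 ± 160 in bulk tissue. By subgroup, 11 of 14 AMPA auxiliary genes, both kainate auxiliary genes, 11 of 14 glutamate receptor scaffolds, 8 of 10 GABA receptor scaffolds and auxiliary proteins, 3 of 4 delta receptor ligands and 2 of 5 glycine receptor subunits were called lower in astrocytes than in bulk tissue.

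Between the layers, no member was called within any fraction or for a difference between fractions by limma without the replicate number as a block. That fit leaves out the pairs assumed below. In astrocytes, 0 of 44 members were called between upper and deep layers by limma (0.0797% of all genes) and 0 by edgeR (0.0753%), with 10 and 8 at an unadjusted p under 0.05, and 2 by DESeq2 (0.629%). In non-astrocytes, limma called 0 (0.00443% of all genes), edgeR 0 (0.031%) and DESeq2 5 (0.611%), with 9, 14 and 13 at an unadjusted p under 0.05. In bulk tissue, limma called 0 (0.456%, 7 at an unadjusted p under 0.05), and edgeR (0.753%) and DESeq2 (1.9%) called 3 each. The counts at an unadjusted p, here and below, have no share over all genes beside them. They cannot be read as particular to the members.

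Same-numbered upper and deep libraries were taken as pairs, which is an assumption. With the number as a block within each fraction, limma called 3 members in astrocytes (0.833% of all genes). The members below were picked out after their values were seen. The 3 upper layer astrocyte values of Grm3 given above lay above the 3 deep layer values. The difference was 0.59 ± 0.16, with an adjusted p of 0.21 in limma, 0.039 with the block and 0.045 in DESeq2. In bulk tissue the Grm3 difference between the layers was 0.01 ± 0.19, and the difference between the astrocyte and bulk tissue differences did not pass the test (0.58 ± 0.25, adjusted p = 0.57). Gabrg3 went the other way, with 139, 131 and 165 in upper layer astrocytes and 274, 336 and 238 in deep layer astrocytes, again without overlap. The difference was -0.95 ± 0.18, with an adjusted p of 0.077 in limma, 0.036 with the block and 0.0016 in DESeq2. The third call with the block, Grm2, rested on 1.91, 5.45 and 8.82 in upper layer astrocytes against 0, 0 and 2.12 in deep layer astrocytes.

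The bulk tissue calls of edgeR and DESeq2 were the kainate subunits Grik3 and Grik4 and the release-inhibiting receptor Grm8. Grik3 had 1927 and 1959 in upper layer bulk tissue, against 4180 and 3915 in deep layer bulk tissue (-1.06 ± 0.25, adjusted p = 0.082 in limma, 0.045 in edgeR and 0.0051 in DESeq2). Grik4 had 145 and 155 in upper layers, against 505 and 431 in deep layers (-1.63 ± 0.38, adjusted p = 0.083 in limma, 0.029 in edgeR and 0.00039 in DESeq2). Grm8 had 156 and 141 in upper layers, against 488 and 415 in deep layers (-1.59 ± 0.48, adjusted p = 0.23 in limma, 0.027 in edgeR and 0.00013 in DESeq2). All 3 were lower in both upper layer libraries, but such separation of 2 against 2 libraries was common. In bulk tissue the layers lay apart for 10 of 16 tested Gabr, 5 of 8 Grm and 4 of 7 Grin genes. They did so for 4 of 5 Grik, 1 of 4 Gria, both Grid and both Gabbr genes. No share over all genes is given for such separation in any layer comparison, so it adds no support. The summed deep layer neuron markers were 4410 to 5464 in upper and 10550 to 11309 in deep layer bulk tissue. Their part in the Grik3, Grik4 and Grm8 differences was not tested.

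In non-astrocytes the DESeq2 calls were Grin2b, Grin2a, Gabrd and Grm2, higher in upper layers, and Grik2, lower there. Grin2b had 3241 and 3127 in upper layer non-astrocytes, against 1652 and 974.8 in deep layer non-astrocytes (1.33 ± 0.29, adjusted p = 0.20 in limma and 0.0063 in DESeq2). The summed neuron markers of these libraries were 14809 to 16326 in upper layers and 9080 to 11777 in deep layers, and their part in the difference was not tested. In bulk tissue both upper layer values of Grin2b given above exceeded both deep layer values (0.76 ± 0.29, adjusted p = 0.475), while in astrocytes the difference was -0.44 ± 0.24 (adjusted p = 0.525).

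Whether a layer difference itself differed between fractions was tested for every member. Between astrocytes and bulk tissue, 0 members were called by limma (0.137% of all genes), edgeR (0.221%) or DESeq2 (0.846%), with 7 at an unadjusted p under 0.05 in each. Between astrocytes and non-astrocytes, 0 were called by limma and 0 by edgeR (0.00443% of all genes in each, 6 at an unadjusted p under 0.05 in each), and 1 by DESeq2 (0.27%), which was Grin2b (-1.70, adjusted p = 0.011).

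**Figure D5:**
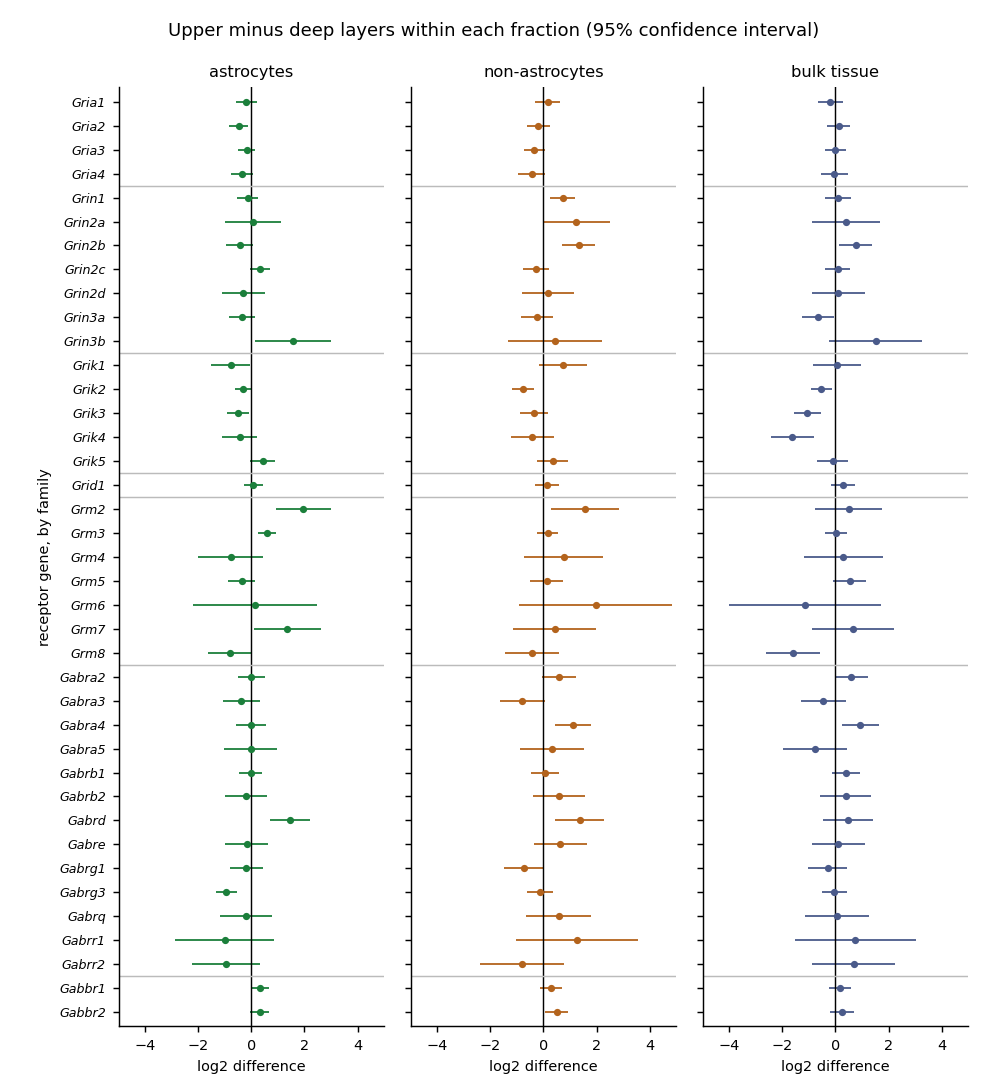
Log2 difference of upper minus deep layers for 39 tested members in astrocytes, non-astrocytes and bulk tissue, with 95% confidence intervals from the fit of all 14 libraries. Most intervals include 0. In bulk tissue Grik3, Grik4 and Grm8 lie left of 0, and in astrocytes Grm3 lies right and Gabrg3 left of it.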

How the data were processed

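RNA of 14 sorted or bulk cortex samples was sequenced as cDNA. Reads were aligned with TopHat2 2.0.11 to GRCm38, counted per gene with HTSeq 0.6.1p1 and normalised with DESeq2, per the submitters' processing notes; the strand setting is not given in the sources used here. The deposited signal values are gene counts that the authors divided by a size factor for each library (0.705 to 1.3025, recovered from the values). Multiplying back gave whole reads for 100% of values within 1e-06. All table columns matched a sample title. For upper layer sorted samples another label field says bulk tissue, and the titles were followed.

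Values were tested as log2(value + 1) with limma 3.58.1 (intensity trend, robust moderation; R 4.3.3) in 1 model of 6 group means, for genes at 10 or more in at least 2 libraries. Whole reads went to edgeR 4.0.16 (quasi-likelihood, TMM) and DESeq2 1.42.0 as alternatives. The scripts were tested on simulated data. Within-receptor shares, divided by exon length (GENCODE M21), were compared with exact permutation tests (SciPy 1.17.1) that took all libraries as independent. Other scalings, pseudocounts, filters, a replicate block and leaving out each library were tried. Same-numbered upper and deep astrocyte libraries deviated together from their group means (r = 0.2034, 0.1487 and 0.1711 over genes). The same r was 0.4356 in non-astrocytes and 0.09374 in bulk tissue. The numbers were taken as pairs on this ground, but libraries of different numbers were not compared, so the pairing remains an assumption.

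Per-library values are given for members called higher in astrocytes, or in non-astrocytes, than in both other fractions, and for each family's most abundant member among those highest in bulk tissue. The rule also took any member called between layers by limma without a block, of which there was none. Some members are not reported here by name. The members and lists were chosen with earlier results of these data known.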

Additional observations from a re-analysis of the deposited data

Results flagged for a closer look

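A single library stood apart from the others of its fraction in 7 of 63 comparisons of a member's values (21 members in 3 fractions, by the size of its gap to the nearest other library). The rule flags about 1 in 20 among normally distributed values of 1 population. Counts that mix upper and deep layers need not be such values, so no excess over chance is read from it. Deep layer astrocyte replicate 2 had 12560 normalised read counts of Gabrg1, and of the other genes in that cluster it was the highest astrocyte library for Gabrb1 (3445) and Gabra4 (1610) but the second lowest of 6 for Gabra2 (942). Upper layer astrocyte replicate 2 had 10634 of Grin2c. Deep layer astrocyte replicate 3 had 43.4 of Grik4. Upper layer non-astrocyte replicate 2 had 1351 of Grm3, and deep layer non-astrocyte replicate 2 had 208 of Grik4. Upper layer bulk tissue replicate 1 had 883 of Grin2c and 1.84 of Gabrr1. The Gabrr1 flag was fixed in advance, since all its other bulk tissue values were 0. The Gabrg1 and Grin2c calls between astrocytes and each other fraction held with every library left out in turn.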

How the results depend on the processing

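The 35, 37 and 39 members called between the fractions numbered the same in edgeR and DESeq2, and 34 to 37, 36 to 37 and 37 to 39 with each library left out; with the replicate block they numbered 36, 39 and 39. Scaling by library totals moved the median of all genes to -0.25, 0.07 and 0.32 in astrocytes against non-astrocytes, astrocytes against bulk tissue and non-astrocytes against bulk tissue, and turned the uncalled Grid1 difference between astrocytes and bulk tissue to 0.072. The layer counts, 0 in every comparison by limma without a block, depended on the test and on the block. In astrocytes 2 members were called by DESeq2, 2 with the replicate block and 3 with the replicate block within fraction, and 0 to 2 with a library left out (2, Gabrg3 and Grm2, without deep layer astrocyte replicate 3). In non-astrocytes 5 were called by DESeq2 and 1 with the block within fraction. In bulk tissue 3 were called by edgeR, 3 by DESeq2, 3 with a pseudocount of 8, 1 with library total scaling and 2 with either block, and 0 to 2 with a library left out (2 without deep layer astrocyte replicate 2). For the difference between astrocytes and non-astrocytes DESeq2 called 1. The cause was not tested. For the layers, shares over all genes are given above only for limma, edgeR, DESeq2 and the astrocyte block within fraction. The counts of the other settings have no such share beside them and cannot be read as particular to the members. With 1 library left out, 3 against 4 libraries cannot bring the share tests of non-astrocytes against bulk tissue below the threshold; the differences were 17.0 to 24.04 percentage points for Gabrg1, 15.2 to 18.3 for Gria2 and 13.9 to 16.2 for Grm3. A minimum of 50 left Gabrr1, Gabrr2, Gabrq, Grm6 and Grin3b untested. Members with few reads, such as Gabrr1, Gabrr2, Grm6 and Grin3b, are limited by depth.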
